A study of Mus musculus with 6 samples.

Results

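To examine how the NF-κB (nuclear factor kappa B) system responded to induction of a LINE-1 (L1) retrotransposon, transcripts of its 5 subunits and of 5 IκB proteins were followed in 6 libraries of total RNA from mouse 4T1 breast carcinoma cells. The 10 genes were taken by symbol (Rela, Relb, Rel, Nfkb1, Nfkb2, Nfkbia, Nfkbib, Nfkbie, Nfkbiz and Bcl3), and all 10 were found among the 24421 genes of the count table. Every library came from the line 4T1-tetL1(GLucAI) (strain BALB/cfC3H), in which a recoded mouse L1 with a Gaussia luciferase retrotransposition reporter is stably integrated behind a doxycycline-inducible promoter. This promoter is bidirectional, so doxycycline also induces firefly luciferase. The same insert drives a Tet-On transactivator and a blasticidin resistance gene from an EF1α promoter, and the cells were a selected population rather than 1 clone. One group of 3 libraries was labelled untreated (vehicle in the treatment tag), and the other 3 came from cells given 400 ng/mL doxycycline during 48 h. Since both groups carry the cassette, effects of doxycycline itself, of firefly luciferase and of L1 cannot be told apart. The cassette transcript was not analysed here, so every direction rests on the labels.

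NF-κB is a family of dimeric transcription factors that hold a shared Rel homology region. In resting cells the classical IκB proteins, which carry ankyrin repeats, keep the dimers in the cytoplasm. When the IκB kinase (IKK) phosphorylates an IκB, it is degraded and the dimer enters the nucleus, where it switches on chemokine, cytokine and protease genes. The genes of several IκB proteins are themselves targets, which forms a negative feedback loop, and Nfkbia is the textbook case. In carcinoma cells NF-κB activity is known for its part in survival and inflammatory signalling.

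Library totals ran from 31653464 to 43631312 counts, and 3 counts correspond to 0.0683 to 0.0943 CPM, a lower limit set by counting error alone. CPM is the count of a gene scaled by the TMM-adjusted total of its library. Each of the 10 genes was far above it, with 326 to 6686 counts in a library. All 6 epithelial markers were detected, with a summed level of 1806 to 1893 CPM in untreated and 1753 to 1982 CPM in doxycycline libraries. The 7 leukocyte markers summed to 9.79 to 12.01 and 9.27 to 11.6 CPM, almost all from Cd68, and Adgre1 was at 0 in every library. The 4 endothelial markers summed to at most 0.81 CPM. The 5 fibroblast markers summed to 35.7 to 38.7 CPM in untreated and 27.95 to 29.6 CPM in doxycycline libraries. Pdgfra made up nearly all of this sum, while Lum was at 0 and Dcn at or near 0. Pdgfra, a growth factor receptor, was lower in doxycycline libraries (log2 fold change -0.40, edgeR adjusted p 0.000951), and its part in the other results was not tested. In bulk RNA, fewer cells of a type and less RNA per cell cannot be told apart.

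The promoters of the members are shown first, because several of these genes are known as targets of NF-κB. Regulation through them was not measured here. Promoter entries (250 bases before to 50 bases after an annotated start, RefSeq, GRCm38.p6) were found for 7 of the 10 genes, and none was matched for Nfkb1, Relb and Nfkbiz. Both strands were searched for GGGNNTTTCC, a strict form of the κB element, and for the wider κB consensus. The forms overlap. The strict form was found in 1.63% of 32851 promoters of the same length, and the wider form in 4.51%. Among the 7 genes, 3 held the strict form (Nfkbia, Nfkb2 and Rel) and 5 held the wider form (these and Nfkbie and Bcl3). Neither form was found in the windows of Rela or Nfkbib. A match is a description of letters and not a measured binding site. The whole Nfkbia promoter (chr12:55492598-55492897, minus strand) is printed because this inhibitor gave the largest change among the members, and the stretches around the matches of Nfkbie (chr17:45555579-45555618, plus strand), Rel (chr11:23771036-23771076, minus strand) and Nfkb2 (chr19:46304683-46304750, plus strand) are printed for comparison. Capitals mark the matches of either form, read 5′ to 3′ along the gene, and overlapping matches run together.
Nfkbia: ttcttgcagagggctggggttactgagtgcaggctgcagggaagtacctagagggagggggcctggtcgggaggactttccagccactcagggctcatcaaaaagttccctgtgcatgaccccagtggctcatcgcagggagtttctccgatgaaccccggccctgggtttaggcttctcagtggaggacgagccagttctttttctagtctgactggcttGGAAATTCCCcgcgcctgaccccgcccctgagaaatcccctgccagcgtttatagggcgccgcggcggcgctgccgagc
Nfkbie: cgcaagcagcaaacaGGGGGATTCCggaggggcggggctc
Rel: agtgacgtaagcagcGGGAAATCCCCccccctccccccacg
Nfkb2: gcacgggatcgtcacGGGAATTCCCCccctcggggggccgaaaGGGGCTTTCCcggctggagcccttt
The Nfkbia match starts 29 bases before the annotated start, that of Nfkbie 106 bases before it and the Rel pair 92 and 91 bases before it. In the Nfkb2 stretch the matches start 39, 38 and 11 bases before the start, and the other two annotated Nfkb2 starts share a further strict match. The Bcl3 match lies just inside the transcript and starts at its base 3.

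Of the 10 genes, 2 were lower in doxycycline libraries: the classical inhibitor Nfkbia and the atypical IκB gene Nfkbiz. These calls came from the edgeR quasi-likelihood test, at a Benjamini-Hochberg adjusted p under 0.05 over 13084 tested genes. No member was called higher by edgeR, DESeq2 or limma voom, while at an unadjusted p under 0.05 there were 3 lower members and 1 higher. Over all tested genes 2.16% were called lower and 0.925% higher, and at an unadjusted p under 0.05 the shares were 8.95% lower and 7.25% higher. Of all calls 283 were lower and 121 higher, and the share of lower calls became 50.1% when the libraries were corrected for GC content and transcript length. The CPM values of the groups did not overlap for 5 members, all lower (Nfkbia, Nfkbiz, Nfkbie, Bcl3 and Nfkb1), and for 0 in the other direction, where 11.1% and 10.1% of all tested genes showed the same.

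**Figure D1:**
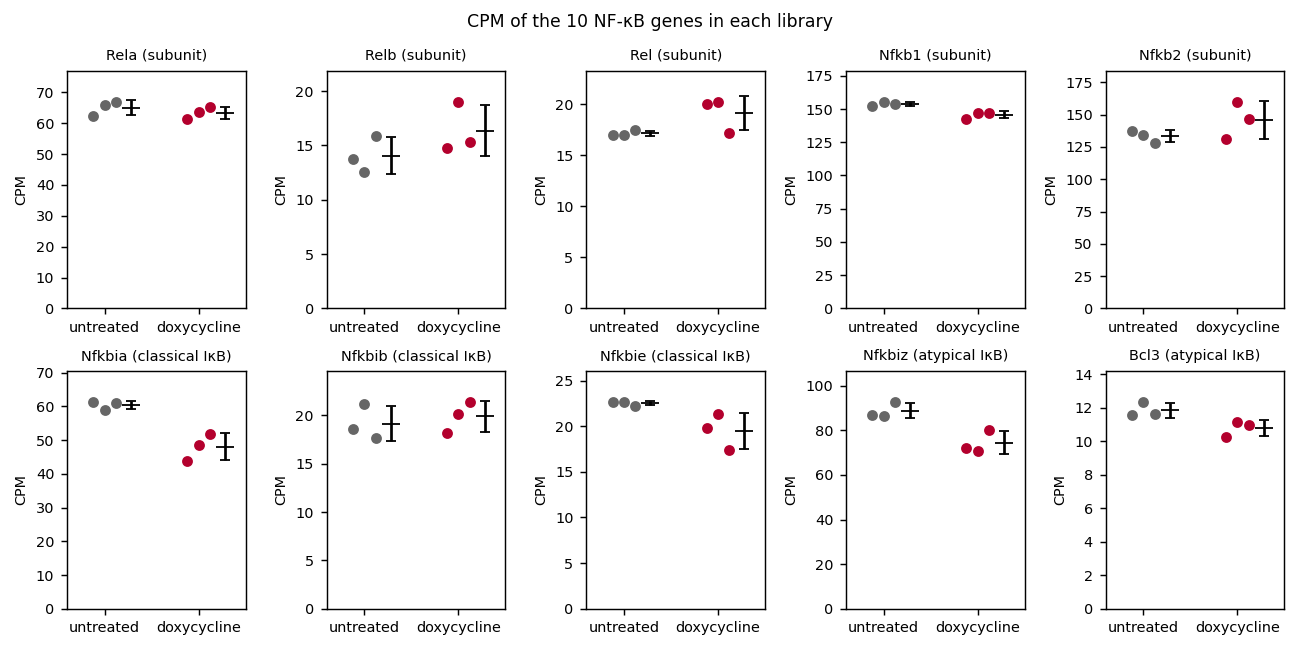
CPM (axes from 0) of each of the 10 genes in the 3 untreated (grey) and 3 doxycycline (red) libraries, with black bars for the group mean and SD. All doxycycline points of Nfkbia (43.8 to 51.7 CPM) lie below all its untreated points (59.0 to 61.3 CPM), whereas those of Rela overlap.

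Nfkbia encodes IκBα, the inhibitor that holds Rela-containing dimers in the cytoplasm and is quickly resynthesised after activation. The gene lies on chromosome 12 (55489409 to 55492647, GRCm38, minus strand, protein-coding). It stood at 61.3, 59.0 and 61.0 CPM in untreated replicates 1 to 3 and at 43.8, 48.5 and 51.7 CPM in doxycycline replicates 1 to 3. Untreated libraries lay within a narrow band, and every doxycycline library was below it. The means were 60.4 ± 1.26 and 48.0 ± 3.99 CPM (SD, n = 3 each). Nfkbia thus fell by 20.6% (edgeR adjusted p 0.00363, log2 fold change -0.33 with SE 0.06). The gene was called in all 17 alternative analyses, with log2 fold changes from -0.39 to -0.27 and adjusted p from 1.84e-05 to 0.0372.

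Nfkbie encodes IκBε, a slower feedback inhibitor of Rel- and Rela-containing dimers (chromosome 17, 45555700 to 45563169, plus strand). It had 22.7, 22.6 and 22.2 CPM in untreated replicates 1 to 3 and 19.8, 21.3 and 17.4 CPM in doxycycline replicates 1 to 3. The groups did not overlap, and doxycycline replicate 3 was the lowest. The log2 fold change of -0.21 (SE 0.08, 95% interval -0.38 to -0.03) did not pass the threshold (unadjusted p 0.0246, edgeR adjusted p 0.223).

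Nfkbib encodes IκBβ, a classical inhibitor that is degraded and restored more slowly and is not a typical feedback gene (chromosome 7, 28758251 to 28766644, minus strand). Its values were 18.6, 21.2 and 17.6 CPM in untreated replicates 1 to 3 and 18.2, 20.1 and 21.4 CPM in doxycycline replicates 1 to 3. The groups overlapped, with a log2 fold change of 0.06 (SE 0.09, 95% interval -0.13 to 0.25, edgeR adjusted p 0.807).

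The atypical IκB proteins act in the nucleus, where they bind subunits on DNA and can raise as well as lower transcription. Nfkbiz encodes IκBζ, a coactivator of secondary response genes that works with Nfkb1 homodimers (chromosome 16, 55811375 to 55838954). It had 86.9, 86.6 and 92.7 CPM in untreated replicates 1 to 3 and 72.0, 70.8 and 80.3 CPM in doxycycline replicates 1 to 3. All doxycycline libraries were below all untreated ones. Nfkbiz fell by 16.2%, from a mean of 88.8 ± 3.42 CPM to one of 74.4 ± 5.17 CPM (SD, n = 3 each, edgeR adjusted p 0.0135). Its log2 fold change was -0.25 with SE 0.06. The call was lost when any single untreated library was left out, with adjusted p of 0.0534 without untreated replicate 1, 0.0544 without untreated replicate 2 and 0.149 without untreated replicate 3.

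Bcl3, a nuclear partner of Nfkb1 and Nfkb2 homodimers and a proto-oncogene (chromosome 7, 19808462 to 19822824, minus strand), gave smaller differences. It had 11.6, 12.3 and 11.6 CPM in untreated replicates 1 to 3 and 10.3, 11.2 and 11.0 CPM in doxycycline replicates 1 to 3. The groups were close but did not overlap. The log2 fold change was -0.13 (SE 0.10, 95% interval -0.34 to 0.08, edgeR adjusted p 0.554).

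None of the 5 subunits was called in either direction by edgeR, DESeq2 or limma voom, and at an unadjusted p under 0.05 there were 0 lower and 1 higher, beside 8.95% and 7.25% of all tested genes. Their log2 fold changes ran from -0.08 to 0.22 with a median of 0.13, against 0.002 for all tested genes. Rela, the main transactivating subunit of the classical pathway (chromosome 19, 5637442 to 5648134, plus strand), had 62.3, 65.7 and 67.0 CPM in untreated replicates 1 to 3 and 61.4, 63.5 and 65.3 CPM in doxycycline replicates 1 to 3. The groups overlapped, and the log2 fold change of -0.03 had a 95% interval of -0.15 to 0.08 (edgeR adjusted p 0.825). A fall of the size seen in Nfkbia lies outside this interval.

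Nfkb1 encodes the precursor p105, which is processed to the DNA-binding subunit p50 and in its unprocessed form acts as an inhibitor (chromosome 3, 135584655 to 135691969). It had 152, 156 and 154 CPM in untreated replicates 1 to 3 and 142, 147 and 147 CPM in doxycycline replicates 1 to 3. The groups did not overlap, but the log2 fold change was only -0.08 (SE 0.04, 95% interval -0.17 to 0.01, edgeR adjusted p 0.403). Counts per gene do not tell p105 from p50, since both come from one transcript.

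Rel encodes c-Rel, a subunit best known from lymphocytes (chromosome 11, 23736847 to 23770969, minus strand). It had 17.0, 17.0 and 17.4 CPM in untreated replicates 1 to 3 and 19.998, 20.2 and 17.2 CPM in doxycycline replicates 1 to 3. Doxycycline replicates 1 and 2 were above every untreated library and doxycycline replicate 3 was not. The log2 fold change was 0.16 (SE 0.09, 95% interval -0.02 to 0.34, edgeR adjusted p 0.381).

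Relb and Nfkb2 form the dimer of the noncanonical pathway, in which p100, the Nfkb2 product, is processed to p52. Relb (chromosome 7, 19606217 to 19629438) had 13.7, 12.5 and 15.9 CPM in untreated replicates 1 to 3 and 14.7, 19.0 and 15.3 CPM in doxycycline replicates 1 to 3. Only doxycycline replicate 2 stood above all untreated libraries, and the log2 fold change was 0.22 (SE 0.11, 95% interval -0.01 to 0.45, edgeR adjusted p 0.324).

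Nfkb2 (chromosome 19, 46300994 to 46312400, plus strand) had 138, 134 and 128 CPM in untreated replicates 1 to 3 and 131, 160 and 147 CPM in doxycycline replicates 1 to 3. As for Relb, doxycycline replicate 2 was the highest, and doxycycline replicate 1 lay within the untreated range. Its log2 fold change of 0.13 (SE 0.06, 95% interval 0.01 to 0.25) missed the threshold over all genes (unadjusted p 0.0367, edgeR adjusted p 0.266). It was called higher when doxycycline replicate 1 was left out (log2 fold change 0.20, edgeR adjusted p 0.0259). Nfkb2 overlaps Psd, whose own row had 9.48 ± 0.75 CPM in untreated and 10.5 ± 1.01 CPM in doxycycline libraries, and the strand setting of the counting is not given in the sources used here.

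**Figure D2:**
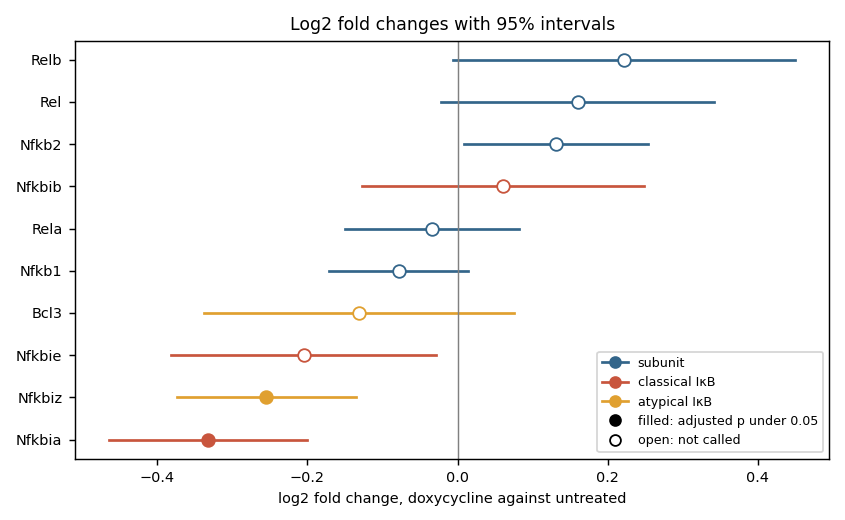
Log2 fold change of doxycycline against untreated libraries for the 10 genes, with 95% intervals from the edgeR fit; filled points passed an adjusted p under 0.05 and colours mark subunits, classical IκB and atypical IκB. Nfkbia (-0.33) and Nfkbiz (-0.25) are the filled points, and Relb (0.22) is the highest open point.

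To contrast subunits with inhibitors inside each library, the mean log2 CPM of the 5 subunits was subtracted from that of the 3 classical inhibitors. This difference was -0.75, -0.69 and -0.84 in untreated replicates 1 to 3 and -1.02, -1.04 and -0.95 in doxycycline replicates 1 to 3. The 3 doxycycline libraries were all below the 3 untreated ones. The group means were -0.76 ± 0.07 and -1.001 ± 0.05 (SD, n = 3 each), a shift of -0.24 log2 units. With the atypical Nfkbiz and Bcl3 added to the classical inhibitors the shift was -0.25, from -0.71 ± 0.06 to -0.96 ± 0.07. Both scores contain Nfkbia, whose own groups did not overlap. Both also count Nfkb1 as a subunit, although its unprocessed product p105 acts as an inhibitor. Of the 3 classical inhibitors, 2 had log2 fold changes below 0 and 1, Nfkbib, above it (0.06). Since the members were chosen with results known, no test was made on these scores.

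The sides of this contrast are given apart. The classical inhibitors averaged 4.89 ± 0.04 log2 CPM in untreated and 4.73 ± 0.07 log2 CPM in doxycycline libraries, without overlap. The subunits averaged 5.65 ± 0.04 and 5.73 ± 0.08 log2 CPM, with overlap. For the difference between the sides, leaving out each library in turn gave shifts from -0.28 to -0.21 with the classical inhibitors. With all 5 IκB genes they ran from -0.29 to -0.22.

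Nfkbia alone, was also set against each subunit. The log2 ratio of Nfkbia to Rela, its main partner, was -0.02, -0.16 and -0.13 in untreated replicates 1 to 3 and -0.49, -0.39 and -0.34 in doxycycline replicates 1 to 3. The group difference of this log2 ratio was -0.30 against Rela, -0.26 against Nfkb1, -0.46 against Nfkb2, -0.49 against Rel and -0.55 against Relb. The groups did not overlap for any of these 5 ratios, which share the Nfkbia values and are therefore not independent of each other. These ratios were not among the planned contrasts, and no test was made on them.

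**Figure D3:**
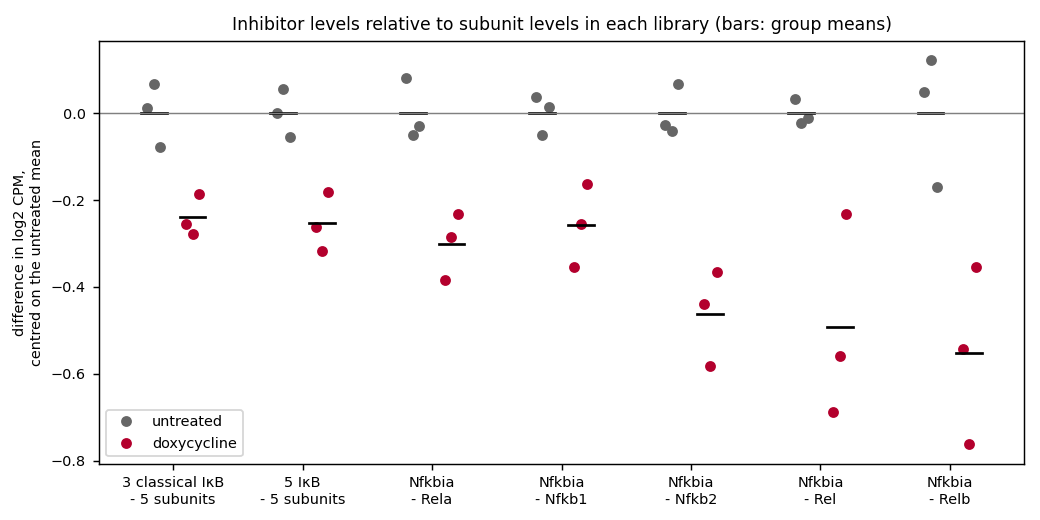
Difference in log2 CPM between inhibitors and subunits in each library, centred on the untreated mean of each contrast (grey untreated, red doxycycline, bars for group means). For the 3 classical inhibitors against 5 subunits the doxycycline mean lies 0.24 log2 units below the untreated mean. The groups are apart in each of the 7 contrasts, all of which contain Nfkbia and so are not independent.

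Within the subunits, the ratio of Nfkb2 to Nfkb1 also differed between groups. Its log2 value was -0.14, -0.22 and -0.26 in untreated replicates 1 to 3 and -0.12, 0.12 and -0.01 in doxycycline replicates 1 to 3. Doxycycline replicate 1 was only just above the highest untreated library. The group means were -0.21 ± 0.06 and -0.003 ± 0.12 (SD, n = 3 each), given here without a test because the pair was picked after its values were seen.

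Levels were compared between genes per length, as RPKM (CPM per kilobase of the union of annotated exons). In untreated libraries the order from high to low was Nfkbia (38.3 ± 0.80 RPKM), Nfkb1 (37.3 ± 0.40), Nfkb2 (31.6 ± 1.11), Rela (23.9 ± 0.88), Nfkbiz (21.5 ± 0.83), Nfkbie (9.24 ± 0.10), Nfkbib (9.00 ± 0.86), Bcl3 (6.40 ± 0.24), Relb (6.35 ± 0.77) and Rel (2.30 ± 0.03). The libraries of Nfkbia and Nfkb1 overlapped, as did those of Nfkbie and Nfkbib and those of Bcl3 and Relb, so these neighbours did not differ beyond their spread. In doxycycline libraries Nfkbia (30.4 ± 2.53 RPKM) came after Nfkb1 (35.3 ± 0.68) and Nfkb2 (34.6 ± 3.45), although its highest library, 32.8 RPKM, overlapped the lowest of Nfkb2, 31.0 RPKM. Relb (7.39 ± 1.05 RPKM) then stood above Bcl3 (5.83 ± 0.26 RPKM) without overlap, and Rel remained lowest with 2.57 ± 0.23 RPKM. The exon lengths come from GENCODE M21 on GRCm38, which may differ from the annotation used for counting.

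**Figure D4:**
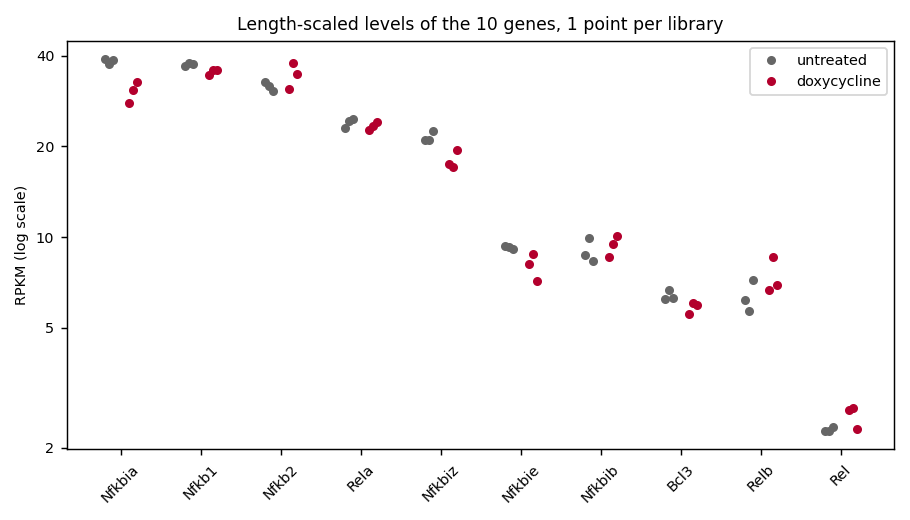
RPKM (log axis) of the 10 genes, ordered by their untreated mean, with 1 point per library (grey untreated, red doxycycline). Nfkbia (38.3 RPKM) leads in untreated libraries and Rel (2.30 RPKM) is last in both groups.

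Upstream of the inhibitors, 20 genes of the IKK complex and of the kinases and adaptors that feed it were all tested. By edgeR 0 were called lower and 0 higher, beside 2.16% and 0.925% of all tested genes. There were 0 at an unadjusted p under 0.05, beside 8.95% lower and 7.25% higher over all tested genes. DESeq2 and limma voom called 0. Their median log2 fold change was 0.01, with 9 below and 11 above 0. The catalytic kinases Chuk (69.2 ± 2.29 and 72.6 ± 6.42 CPM, log2 fold change 0.07) and Ikbkb (61.4 ± 3.23 and 66.7 ± 3.003 CPM, 0.12) and the regulatory subunit Ikbkg (41.1 ± 1.36 and 38.1 ± 1.86 CPM, -0.11) overlapped between groups. Map3k14, the kinase of the noncanonical pathway, had 20.7 ± 2.79 and 20.9 ± 2.21 CPM. Transcript levels do not report kinase activity.

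The ubiquitin ligase that marks phosphorylated IκB for degradation, with its neddylation enzymes, was represented by 7 genes. Again 0 were called lower and 0 higher by edgeR, DESeq2 and limma voom, with 0 at an unadjusted p under 0.05. The edgeR shares over all tested genes were 2.16% and 0.925%, and 8.95% and 7.25% at an unadjusted p under 0.05. Btrc, the subunit that recognises phosphorylated IκB, had 25.0 ± 1.33 and 23.4 ± 0.97 CPM (log2 fold change -0.10, edgeR adjusted p 0.577).

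A further list held 15 other IκB-like proteins and brakes on the pathway, most of them acting on ubiquitin chains. Of these 12 had log2 fold changes below 0, with a median of -0.06, against 49.2% of all tested genes and a median of 0.002. Beside 2.16% of all tested genes, edgeR called 2 of them lower, against 2 by DESeq2 and 1 by limma voom. None was called higher by these tools. An unadjusted p under 0.05 in the edgeR fit was reached by 3 genes, all lower, beside 8.95% of all tested genes. Zc3h12a, an endoribonuclease that degrades inflammatory transcripts, fell by 19.5% from 44.5 ± 2.30 CPM in untreated libraries to 35.8 ± 4.05 CPM (edgeR adjusted p 0.0217, log2 fold change -0.31 with SE 0.08). Its call was kept in 12 of 17 alternatives and in 1 of the 6 that left out a library, that without doxycycline replicate 2. Tnip3, which encodes a partner of the deubiquitinase A20, fell by 42.0% from 2.97 ± 0.41 CPM in untreated libraries to 1.72 ± 0.33 CPM (edgeR adjusted p 0.0481, log2 fold change -0.79 with SE 0.21). Its call was kept in 8 of 17 alternatives and, among those that left out a library, only in that without doxycycline replicate 1 (adjusted p 0.0496). DESeq2 gave it an adjusted p of 0.0515 and limma voom one of 0.0633.

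Tnfaip3, which encodes A20 and is a feedback gene like Nfkbia, had 129 ± 2.80 CPM in untreated and 115 ± 3.73 CPM in doxycycline libraries, without overlap. It lay at the threshold (log2 fold change -0.17, SE 0.05, edgeR adjusted p 0.0546) and passed it in 7 of 17 alternatives, DESeq2 among them (adjusted p 0.0220). The A20 partner Tnip1 had a log2 fold change of -0.13 (edgeR adjusted p 0.402), and Nfkbid, an atypical IκB outside the list of members, one of -0.15 (edgeR adjusted p 0.671).

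Downstream, 32 of 36 listed target genes were tested, and Cxcl2, Tnf, Icam1 and Ltb were too low. Of the 32, 13 were called lower and 0 higher by edgeR, beside 2.16% and 0.925% of all tested genes. An unadjusted p under 0.05 was reached by 16 lower genes and 1 higher gene (8.95% and 7.25% over all tested genes). The median log2 fold change was -0.24, against 0.002 for all tested genes. DESeq2 and limma voom also gave 13 lower and 0 higher, while the fit with replicate block gave 13 lower and 1 higher. The largest called changes were in Nos2, the inducible nitric oxide synthase (log2 fold change -1.35, SE 0.12), Cxcl5, a neutrophil chemokine (-0.90, SE 0.08), and Lcn2, an iron-siderophore binding protein (-0.85, SE 0.06), with edgeR adjusted p of 2.16e-06, 3.53e-05 and 3.26e-08. These are members of a list written with earlier results of these data known, so their shared direction is no independent support. Of the 32, 6 had log2 fold changes above 0, and none of these was called by edgeR without the block. They were Ccl7 (0.35, SE 0.54), Ptgs2 (0.28, unadjusted p 0.0337, edgeR adjusted p 0.255), Cd44 (0.05), Lif (0.04), Traf1 (0.03) and Sod2 (0.02). The Ccl7 value rests on only 6 to 12 counts in a library.

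**Figure D5:**
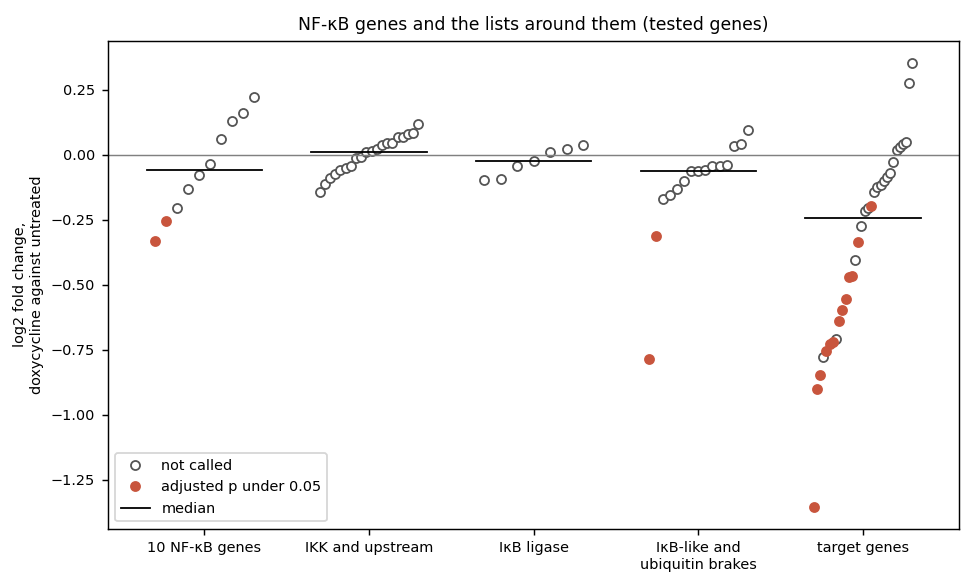
Log2 fold change (doxycycline against untreated) of each tested gene in 5 groups: the 10 NF-κB genes, IKK and upstream genes, the IκB ligase, IκB-like proteins and ubiquitin brakes, and target genes, with black lines for medians. Filled points passed an adjusted p under 0.05, and the 13 filled target genes are all below 0, whereas the IKK and ligase groups hold 0 filled points.

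The genes whose profile over the 6 libraries lay closest to Nfkbia, by the root mean square difference of centred log2 CPM among 10937 genes, were Hist2h3b (0.016), Hist1h2ac (0.040), Rbl2 (0.049), Adgrf5 (0.050) and Rab32 (0.052). The spread of Nfkbia itself by the same measure was 0.18. Among the 5 closest to Nfkbiz, whose own spread was 0.14, were Fam117b (0.019), 1110007C09Rik (0.022), Hist1h3c (0.030) and Hist1h3i (0.033). Histone genes exist as nearly identical copies, and the value of any one of them is uncertain. None of the genes named here is on the lists above.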

How the data were processed

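Total RNA of 6 samples was sequenced after ribosomal RNA depletion with a stranded kit. The authors aligned reads with STAR to mm10/GRCm38 and counted them with featureCounts, and they deposited raw counts per gene, with replicates apart. The submitters' processing notes list bcl2fastq 2.20 and Subread 1.6.2. The strand setting and the handling of multi-mapped reads are not given in the sources used here.

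The 6 columns were matched by library code and 0 were left over. Groups come from titles. The paper calls the replicates of this experiment biological triplicates. Whether they were separate cultures is not stated in the labels, so p-values measure the spread between these samples. No replicate pair agreed within sampling noise (chi-square per degree of freedom 6.35 to 23.2). This measure sums over all tested genes, Rn45s among them, which held 8.83% to 12.1% of the counts of a library. It can therefore be weighted by that row, and its value without Rn45s was not computed. The test was edgeR 4.0.16 (R 4.3.3), quasi-likelihood with robust estimation, TMM, filterByExpr (13084 genes), group only, Benjamini-Hochberg at 0.05 across all genes. SE is the absolute log2 fold change over the square root of F. Log2 CPM used a prior count of 2. The script was tested on simulated data.

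Alternatives were other scalings, no filter, a minimum of 10 counts per library, the replicate number as block, leaving out each library, DESeq2 1.42.0, limma 3.58.1 voom, thinning, a loess correction (span 0.5) for GC content and length, and, added after seeing the data, leaving out Rn45s. Proteins and transposable elements were not analysed here. Members and lists were chosen with earlier results of these data known. Named genes are the 10 members, up to 3 called genes of largest change per list, 8 fixed pathway genes (Chuk, Ikbkb, Ikbkg, Map3k14, Btrc, Tnfaip3, Tnip1 and Nfkbid) and the 5 closest profiles of each called member, of which 1 is not reported here. Ccl7, Ptgs2, Cd44, Lif, Traf1 and Sod2 (the targets above 0) and the ratio of Nfkb2 to Nfkb1 were chosen after their values were seen.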

Additional observations from a re-analysis of the deposited data

How the results depend on the processing

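Across 17 alternatives, 16 of them planned, the shift between classical inhibitors and subunits stayed negative, from -0.28 to -0.21. The same held for all 5 IκB genes, from -0.29 to -0.22. Fits that left out a library gave 1 to 2 members called lower and 0 to 1 called higher, where the other settings gave 2 and 0. Nfkbiz was lost without each untreated replicate, and Nfkb2 was gained without doxycycline replicate 1. Tnip1 was called without doxycycline replicate 2 (-0.23, edgeR adjusted p 0.0188). Leaving out a library moved the log2 fold change of Map3k14 from -0.09 to 0.10, with -0.094 without untreated replicate 1 and -0.076 without doxycycline replicate 2. Of 561 pairs of a named gene and an alternative, 520 kept direction and side of the threshold, 30 lost the call and 9 gained one, and 2 changed sign. The cause was not tested.

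Same-numbered libraries did not deviate together (r -0.04, -0.004 and 0.02), so the numbers are not taken as pairs. With the replicate block, 2 members were called lower and 0 higher, Nfkbia at -0.34, and 418 genes in all, against 404 without it. The other library pairings gave r of -0.05 to 0.05.

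Called genes, 404 in the analysis reported, numbered 866 with the GC content and length correction (434 lower, 432 higher), 649 without a filter (439 and 210), and 160 to 756 when a library was left out, the ends being without untreated replicate 3 and without doxycycline replicate 2. All 10 members had enough counts to be tested, whereas Cxcl2, Tnf, Icam1 and Ltb were too low. The SE still differed between members, from 0.04 for Nfkb1 to 0.11 for Relb, which had far fewer counts. Small changes were therefore harder to call in some members than in others.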
